A study of Mus musculus with 16 samples.

Results

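The imprinted growth genes described here are 10 genes that are expressed mainly from a single parental copy and regulate growth before birth: H19, Igf2, Igf2r, Dlk1, Meg3, Peg3, Mest, Grb10, Plagl1 and Cdkn1c. They were chosen by name, and every probe set that the array's platform annotation assigned to them was taken, which gave 30 probe sets for 9 of the genes among 45037 tested. H19 was represented by a single probe set that the annotation assigned to both H19 and Mir675, the microRNA gene inside the H19 transcript. Igf2r had a further probe set, assigned jointly to Airn, the antisense RNA that silences Igf2r on the paternal copy. These 2 shared probe sets are described beside the others and are left out of the counts.

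The lungs came from male Balb/c mice aged 15 weeks, and RNA of the left lung was measured on Affymetrix mouse expression arrays. Exposure was to filtered air or to the smoke from the burning end of cigarettes, called sidestream or second-hand smoke (SHS), with 10 mg of particles per m3, and sessions lasted 5 hours on each of the 7 days of the week. The first letter of a group names the exposure in utero and the second the adult exposure: SS mice had SHS at both times, SA mice had SHS in utero and filtered air as adults, AS mice had filtered air in utero and SHS as adults, and AA mice had filtered air at both times. The labels name no litter, so siblings from the same dam cannot be told apart from unrelated animals, and p-values measure the spread between these lungs. The question put to the members was whether smoke before birth left a difference in their expression that was still present in the adult lung, either without adult smoke (SA minus AA) or with it (SS minus AS).

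Imprinted genes carry a DNA methylation mark set in the germline, by which either the maternal or the paternal copy is silenced. Many genes expressed from the paternal copy, among them Igf2, Dlk1, Peg3 and Mest, promote fetal growth, and many expressed from the maternal copy, among them H19, Igf2r, Grb10 and Cdkn1c, restrain it. In the lung, as in other organs, several of these genes are abundant before birth and decline as postnatal growth slows. The arrays measure the sum of both parental copies and hold no methylation, so a change of the active copy would be seen only as a change of the total. In RNA from whole lung, fewer cells of a type and less RNA per cell cannot be told apart.

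H19 is an RNA without a protein product, and its processing yields miR-675. The mature miR-675 sequences are shown because the probe set with the largest in-utero difference carries both names. They are RefSeq entries on GRCm38.p6, at chr7:142577112-142577133 and chr7:142577078-142577099 on the minus strand, printed 5′ to 3′ with the seed (bases 2 to 8) in capitals. The seeds of the 2 arms differ.
mmu-miR-675-5p: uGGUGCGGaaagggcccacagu
mmu-miR-675-3p: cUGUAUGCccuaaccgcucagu

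The study had run 4 arrays for each group, and in both AS and SS 2 of them were nearly identical. Between AS replicates 3 and 4 the typical (root mean square) difference across the 300 bright probe sets with the highest variance was 1.35 times that across the 3000 with the lowest, and between SS replicates 1 and 2 it was 1.24 times, against 2.84 to 5.96 times for the other 22 pairs. Each near-identical pair was averaged and counted as 1 sample, so that 3 SS, 4 SA, 3 AS and 4 AA samples entered every test. Across the 3000 with the lowest variance, AS replicates 3 and 4 differed from AS replicates 1 and 2 by 0.207 to 0.257. All other pairs differed there by at most 0.132. The averaged AS pair also had the lowest array weight of all samples, 0.265. It is 1 of only 3 AS samples in SS minus AS and AS minus AA, and the cause was not tested. Array medians lay between 6.90 and 6.93 on the log2 scale. The lung markers were present in all samples, with Sftpc, the surfactant protein of alveolar type 2 cells, between 15.01 and 15.10, and Scgb1a1, the secretory protein of club cells, between 14.91 and 14.98.

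No member probe set differed by in-utero exposure past the threshold, a limma p of under 0.05 after Benjamini-Hochberg adjustment across the 45037 probe sets. In SA against AA lungs 0 of 30 passed, as did 0% of all probe sets, and 1 of 30 had an unadjusted p under 0.05 (3.33%, against 6.23% of all probe sets). In SS against AS lungs 0 of 30 passed (against 0.968% of all probe sets), and 3 of 30 had an unadjusted p under 0.05 (10%, against 13.6%). In the mean of both in-utero differences 0 of 30 passed (against 0.284%), and 1 had an unadjusted p under 0.05 (3.33%, against 11.9%). The values of SA and AA lungs did not overlap at 1 of 30 probe sets (3.33%, against 3.68% of all), and those of SS and AS lungs at 2 (6.67%, against 18.6%). The members' shares at an unadjusted p under 0.05 and without overlap were each below those over the whole array. They rest on 1 to 3 of 30 probe sets, 11 of which belong to Meg3, and are too few to show a deficit.

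The intervals show, for 1 probe set at a time, how large a difference could have gone unseen. They rest on the spread between these lungs, whose litters are not known, and give no joint limit over the 30. Over the 30 probe sets the 95% confidence limits of the mean in-utero difference reached no further than 0.43 on the log2 scale upward, or 1.35-fold, and -0.36 downward. In SA against AA lungs alone the limits ran from -0.68 to 0.48, and in SS against AS lungs from -0.40 to 0.79. The joint H19 and Mir675 probe set, outside the 30, had wider upper limits for the mean, 0.81, and in SA against AA lungs, 1.21. In SS against AS lungs its upper limit was 0.70. At the brightest probe set of each of the 9 genes (the one with the highest mean) the median difference was 0.04 in SA against AA lungs, with 5 genes higher and 4 lower, and 0.04 in SS against AS lungs, with 7 higher and 2 lower. The medians over all probe sets were 0.00 and -0.01.

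**Figure D1:**
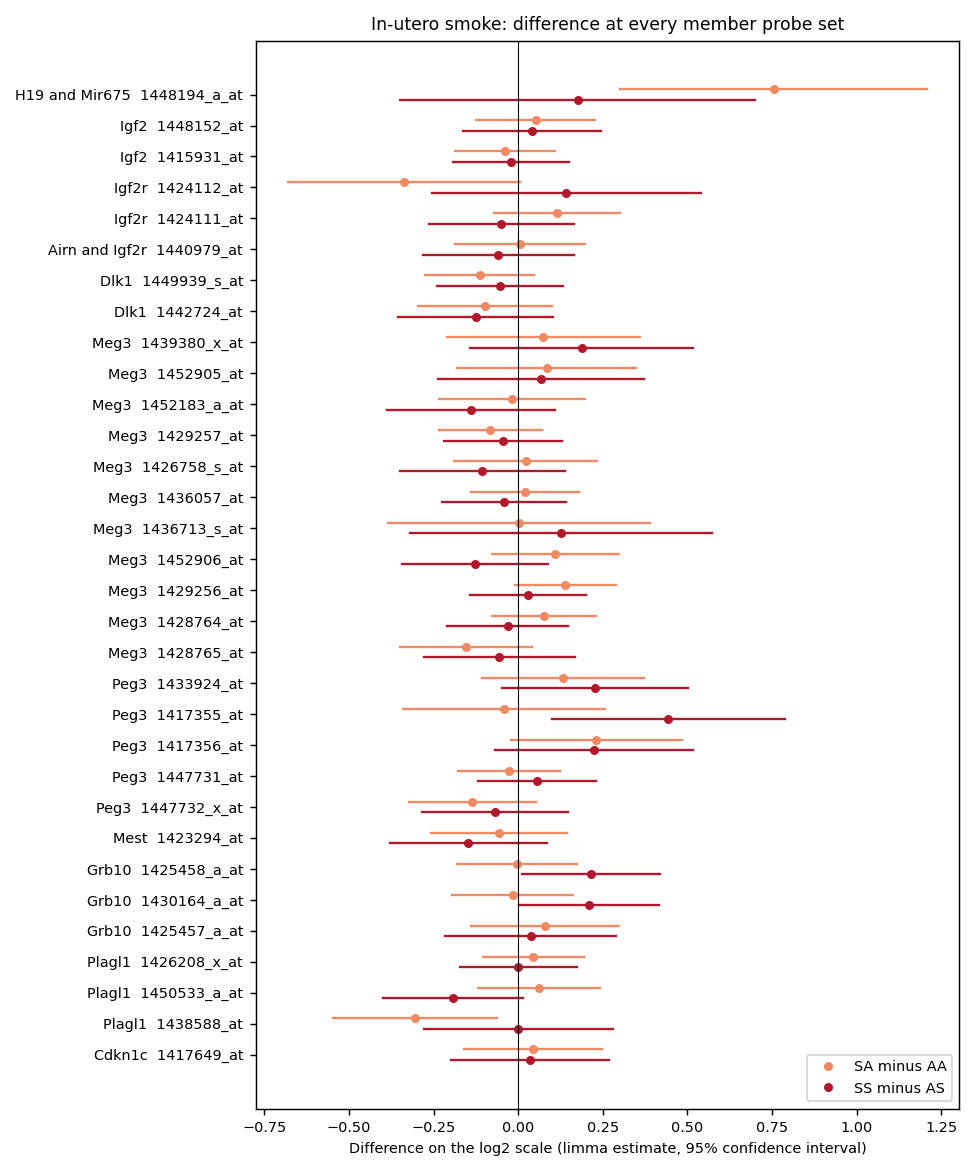
Difference between in-utero SHS and in-utero air on the log2 scale, with its 95% confidence interval from limma, for the 30 member probe sets and the 2 shared ones. Orange is SA minus AA and red is SS minus AS. Most intervals cross 0, the joint H19 and Mir675 probe set lies farthest to the right with 0.75 in SA minus AA, and none passed the adjusted threshold.

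The largest in-utero difference was at the joint H19 and Mir675 probe set, 1448194_a_at, in mice kept in air as adults. It read 6.20, 6.68, 6.75 and 7.25 on the log2 scale in SA lungs, against 6.26, 5.30, 6.14 and 6.15 in AA lungs. In mice with adult smoke it read 6.19, 6.08 and 6.24 in SS lungs, against 6.26, 5.78 and 5.95 in AS lungs. Of the 4 SA lungs 3 lay above every other lung of the study, and SA replicate 1 lay among the AA lungs.

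The SA mean exceeded the AA mean by 0.75 ± 0.21 (SE) at this probe set, or 1.69-fold, with an interval from 0.30 to 1.21 (limma, unadjusted p = 0.00303, adjusted p = 0.682). The SS mean exceeded the AS mean by 0.18 ± 0.25 (adjusted p = 0.788). The mean of both was 0.46 ± 0.16 (unadjusted p = 0.0121, adjusted p = 0.267), and the interaction, SS minus AS less SA minus AA, was -0.58 ± 0.33 (adjusted p = 0.639). The difference between these 2 in-utero effects was therefore not past the threshold. Leaving out AA replicate 2, the lowest lung, gave 0.53 for SA minus AA, and leaving out SA replicate 4, the highest, gave 0.58. The residual SD of 0.36 was larger than at 98.8% of all probe sets.

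SA replicate 4 also stood apart in marker lists of other cells. The mean over 4 measured of 8 erythroid genes (red cell precursors, the lowest of them Hba-a1) was 8.33 in that lung on the log2 scale, and the group ranges were 6.18 to 7.21 in SS, 6.33 to 8.33 in SA, 6.55 to 7.12 in AS and 5.97 to 7.05 in AA lungs. The mean over 7 of 8 proliferation genes was 8.03 in it, against 6.57 to 6.86 in the other 13 samples. For 7 smooth muscle and pericyte genes it was 10.17, against 9.68 to 9.98. SA replicate 4 was also the highest sample in matrix fibroblast genes (12.00), skeletal muscle genes (6.06) and nerve genes (6.68, only 2 measured). It was the lowest in the lung marker genes (13.25), and neither highest nor lowest in the remaining marker lists. The part of these cells in the H19 and Mir675 value was not tested. The difference of 0.58 without that lung is the measurement that leaves it out.

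**Figure D2:**
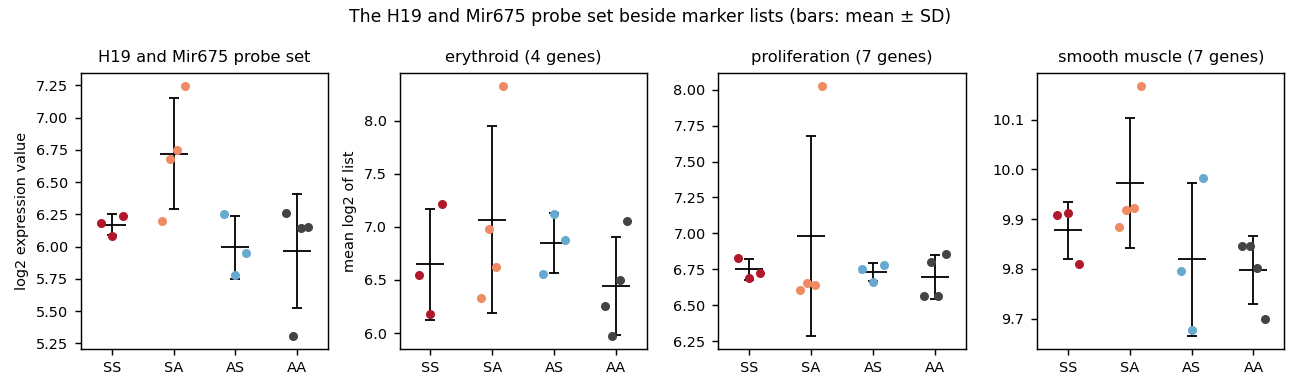
Log2 value of the joint H19 and Mir675 probe set in each sample (left), beside the mean log2 value of marker genes of red cell precursors, of dividing cells and of smooth muscle with pericytes, by group. Points are samples and bars are mean ± SD (n = 3 SS, 4 SA, 3 AS, 4 AA); the highest SA sample, replicate 4, is highest in all 4 panels.

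Igf2, the fetal growth ligand that shares an imprinting control region with H19, was close to equal in all groups. Its brightest probe set read 8.31, 8.36, 8.55 and 8.38 in SA lungs, against 8.51, 8.22, 8.46 and 8.19 in AA lungs, a difference of 0.05 ± 0.08 with an interval from -0.12 to 0.23. It read 8.46, 8.42 and 8.49 in SS lungs, against 8.51, 8.31 and 8.43 in AS lungs, a difference of 0.04 ± 0.10. Groups overlapped in both comparisons. The dimmer Igf2 probe set, with -0.04 and -0.02 for the same differences, lay between 4.14 and 4.46 in all samples.

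Igf2r, the receptor that carries IGF2 to lysosomes and so limits it, read 9.68, 9.58, 9.63 and 9.66 at its brightest probe set, 1424112_at, in SA lungs, against 9.77, 10.66, 9.77 and 9.71 in AA lungs. This was the only member probe set whose SA and AA values did not overlap, and AA replicate 2 stood far above the rest. The difference was -0.34 ± 0.16 (limma, adjusted p = 0.800), and -0.11 without AA replicate 2. In SS against AS lungs it was 0.14 ± 0.19. At the other Igf2r probe set the same AA replicate 2 was the lowest of its group, at 8.35, and the differences were 0.11 in SA against AA lungs and -0.05 in SS against AS lungs. The joint Airn and Igf2r probe set had 0.01 and -0.06.

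Grb10 encodes an adaptor that dampens insulin and IGF receptor signals. Its brightest probe set, 1425458_a_at, read 10.96, 10.83 and 10.78 in SS lungs, against 10.73, 10.51 and 10.68 in AS lungs, with no overlap. The difference was 0.22 ± 0.10, or 1.16-fold (limma, unadjusted p = 0.0396, adjusted p = 0.337). A second Grb10 probe set had 0.21 ± 0.10 (adjusted p = 0.362) and the third, 1425457_a_at, 0.04 ± 0.12. Without AS replicate 2, the lowest AS lung at all 3, these values were 0.15, 0.10 and -0.09. In SA against AA lungs the 3 probe sets had 0.00, -0.02 and 0.08, and the values overlapped at each of them.

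Cdkn1c, an inhibitor of cyclin-dependent kinases that brings cells out of the cycle, read 9.03, 8.93, 9.03 and 9.31 in SA lungs, against 9.05, 9.13, 9.05 and 8.91 in AA lungs. It read 9.20, 9.21 and 9.02 in SS lungs, against 8.93, 9.09 and 9.32 in AS lungs. The in-utero differences were 0.04 ± 0.10 and 0.03 ± 0.11, with overlapping groups.

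Plagl1 encodes a zinc finger factor that, in mouse, regulates other imprinted genes. Its brightest probe set stayed between 12.13 and 12.41 over all 14 samples, with 0.04 ± 0.07 in SA against AA lungs and 0.00 ± 0.08 in SS against AS lungs. A dimmer probe set, 1438588_at, read 5.43, 5.73, 5.47 and 5.80 in SA lungs, against 5.89, 6.20, 5.60 and 5.97 in AA lungs, a difference of -0.31 ± 0.11 (limma, unadjusted p = 0.0168, adjusted p = 0.755). It had 0.00 ± 0.13 in SS against AS lungs. The third, 1450533_a_at, read 7.32, 7.41 and 7.40 in SS lungs, against 7.53, 7.49 and 7.69 in AS lungs, without overlap (-0.19 ± 0.10, adjusted p = 0.409), and had 0.06 in SA against AA lungs. The 3 probe sets therefore did not move as a unit in either comparison.

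Peg3, a zinc finger protein expressed from the paternal copy and known for effects on growth and maternal care in mice, had the lowest p of the 9 genes in the mean in-utero difference. At 1417356_at it read 7.07, 7.06, 7.33 and 7.06 in SA lungs, against 6.90, 6.78, 6.80 and 7.11 in AA lungs, and 7.05, 7.04 and 7.06 in SS lungs, against 7.17, 6.49 and 6.81 in AS lungs. Values overlapped in both pairs of groups, in each through 1 lung of the group without in-utero smoke. The mean difference was 0.23 ± 0.09, or 1.17-fold (limma, unadjusted p = 0.0242, adjusted p = 0.331), and it ran from 0.15 without AS replicate 2 to 0.31 without AS replicate 1.

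The brightest Peg3 probe set, 1433924_at, read 9.19, 9.02, 9.02 and 9.07 in SA lungs, against 9.05, 8.88, 8.76 and 9.08 in AA lungs, and 9.03, 9.02 and 8.85 in SS lungs, against 9.03, 8.41 and 8.77 in AS lungs. Its mean in-utero difference was 0.18 ± 0.09 (adjusted p = 0.426), and 0.10 without AS replicate 2. At another, 1417355_at, SS lungs read 8.19, 8.22 and 8.03, against 8.17, 7.31 and 7.63 in AS lungs. The SS minus AS difference there was 0.44 ± 0.16, or 1.36-fold (unadjusted p = 0.0151, adjusted p = 0.239), while SA minus AA was -0.04 ± 0.14.

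At 1417355_at the value moved with single AS lungs. Without AS replicate 1 the difference of SS from AS lungs was 0.68 and passed (limma, adjusted p = 0.0194), and without AS replicate 2 it was 0.24 (adjusted p = 0.388). With all 16 arrays counted as separate samples it was 0.47 and also passed (adjusted p = 0.0492). The remaining Peg3 probe sets lay near the bottom of the scale, between 2.64 and 3.25, with mean in-utero differences of 0.01 and -0.10. AS replicates 1 and 2 also carried the highest immediate early genes, while the averaged AS pair, at 11.20, lay below AA replicate 3, at 11.24. The mean log2 value of 9 such genes (Fos, Egr1, Junb and others) was 9.65 to 10.47 in SS, 9.77 to 10.19 in SA, 11.20 to 12.59 in AS and 10.41 to 11.24 in AA lungs. In SS against AS lungs 7 of these 9 genes fell past the threshold at their brightest probe sets, with a median of -1.83. Of all probe sets 0.968% passed there, counted in either direction. The part of the immediate early genes in the Peg3 and Grb10 values was not tested.

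The 250 bases upstream of the annotated Peg3 start are shown for the following reasons. Peg3 had the lowest p in the mean in-utero difference among the 9 genes with probe sets of their own. Its window was also the only one of 15 member windows with a PLAGL1 motif, GGGGCCCC. The motif reads the same on both strands and is given in capitals. The 15 windows, some of which overlap, came from 8 member genes, and H19 and Cdkn1c had no window. The Peg3 window is chr7:6730420-6730669 on the minus strand, from RefSeq on GRCm38.p6. The motif starts at position -201.0 from the transcript start, the GC content was 60.4%, and 8 CpG dinucleotides lay in the window. It was found in 292 of 32851 windows of this length, or 0.889%. A match is a description of the letters, and across the 14 samples Peg3 and Plagl1 had a correlation of 0.03 at their brightest probe sets.
Peg3 upstream window: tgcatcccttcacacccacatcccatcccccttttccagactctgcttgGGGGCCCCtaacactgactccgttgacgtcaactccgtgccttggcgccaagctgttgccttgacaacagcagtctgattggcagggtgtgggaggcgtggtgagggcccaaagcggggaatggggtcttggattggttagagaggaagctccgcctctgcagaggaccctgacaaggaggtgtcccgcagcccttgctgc

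Dlk1, a transmembrane inhibitor of differentiation, and Meg3, an RNA without a protein product that is expressed from the maternal copy of the same cluster, showed no in-utero difference past the threshold. Dlk1 read 5.35, 5.52, 5.52 and 5.50 in SA lungs, against 5.53, 5.79, 5.45 and 5.57 in AA lungs (-0.11 ± 0.08), and 5.55, 5.56 and 5.47 in SS lungs, against 5.57, 5.50 and 5.67 in AS lungs (-0.05 ± 0.09). Its values were at most 5.79 in any sample, in the lower part of the array's range of 2.40 to 15.11.

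Meg3 had 11 probe sets, with means between 3.98 and 8.65. The brightest, 1439380_x_at, read 8.39, 8.67, 8.64 and 9.18 in SA lungs, against 8.46, 8.82, 8.55 and 8.77 in AA lungs, and 8.78, 8.54 and 8.76 in SS lungs, against 8.53, 8.57 and 8.42 in AS lungs. SA replicate 4 was again the highest lung, and SA and AA values overlapped. Over the 11 probe sets SA minus AA ran from -0.15 to 0.14 and SS minus AS from -0.14 to 0.19, all with adjusted p above the threshold.

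Mest, a hydrolase-like protein expressed from the paternal copy and linked to fat and body growth in mice, read 8.59, 8.90, 8.69 and 8.91 in SA lungs, against 8.70, 8.92, 8.68 and 9.02 in AA lungs. It read 8.72, 8.79 and 8.88 in SS lungs, against 9.07, 8.90 and 8.86 in AS lungs. The in-utero differences were -0.06 ± 0.09 and -0.15 ± 0.11, and the groups overlapped.

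**Figure D3:**
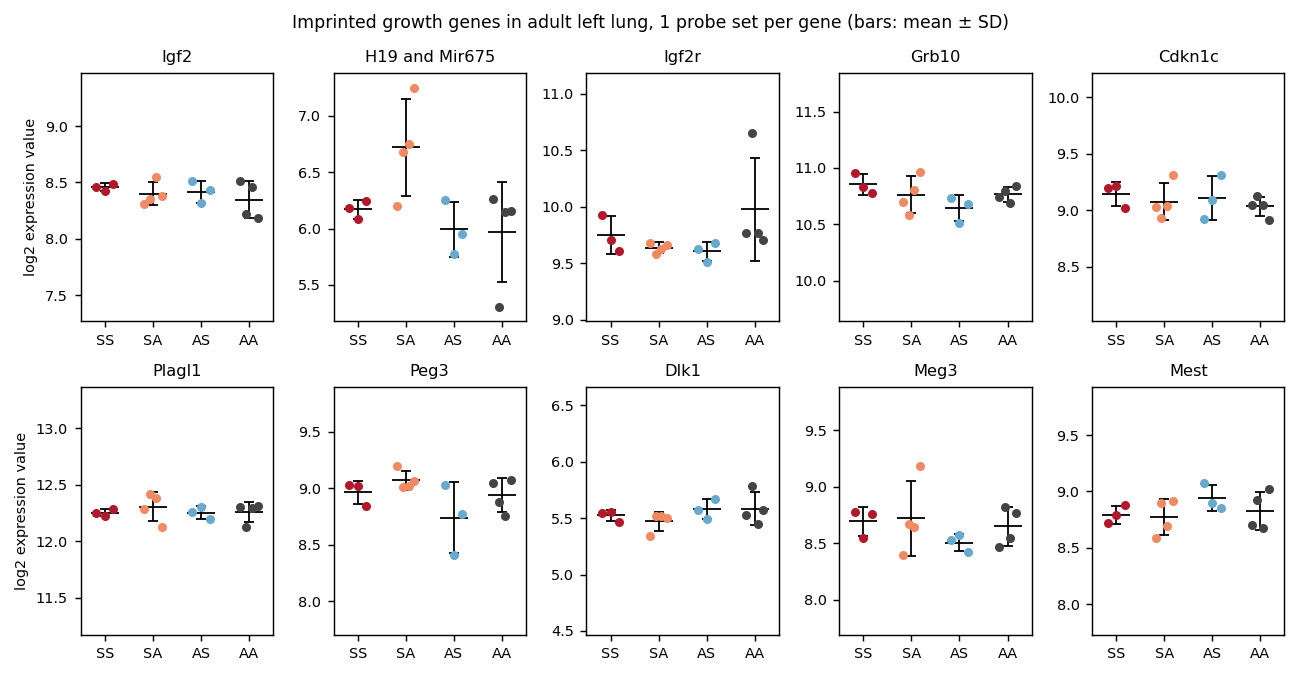
Log2 expression value of each member in each sample at 1 probe set per gene, the brightest, or for H19 the one shared with Mir675; groups run SS, SA, AS, AA. Points are samples, bars are mean ± SD (n = 3 SS, 4 SA, 3 AS, 4 AA), and each panel has its own axis; the groups overlap in most panels, SA stands highest for H19 and Mir675, and AA replicate 2 at 10.66 stands apart for Igf2r.

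Adult smoke gave the same picture of differences short of the threshold. In AS against AA lungs 0 of 30 member probe sets passed (against 1.55% of all probe sets), 4 had an unadjusted p under 0.05 (13.3%, against 20.3%) and 5 did not overlap (16.7%, against 16.3%). In SS against SA lungs 0 passed (against 1.64%), 1 had an unadjusted p under 0.05 (3.33%, against 14.5%) and 2 did not overlap (6.67%, against 16.7%). For the interaction 0 passed (against 0.131%) and 1, Peg3 at 1417355_at, had an unadjusted p under 0.05 (3.33%, against 9.11%). These comparisons reuse the lungs of the in-utero comparisons, AA and AS lungs in AS minus AA and SA and SS lungs in SS minus SA.

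The member nearest to the threshold in the whole study was Meg3 at 1452906_at, which read 6.41, 6.38 and 6.29 in AS lungs, against 5.77, 6.18, 6.15 and 5.98 in AA lungs, without overlap. The difference was 0.34 ± 0.09, or 1.26-fold (limma, unadjusted p = 0.00288, adjusted p = 0.0812). Of the 11 Meg3 probe sets, which read the same gene on the same arrays, 10 were higher in AS than in AA lungs. Without overlap were 3 of the 11, against 16.3% of all probe sets. Besides 1452906_at these were 1429256_at (0.18 ± 0.08, unadjusted p = 0.0331, adjusted p = 0.209) and 1436057_at (0.16 ± 0.08, adjusted p = 0.279). The 1 Meg3 probe set lower in AS lungs was the brightest, with -0.14 ± 0.14. Peg3 at 1417355_at had -0.36 ± 0.15 in AS against AA lungs (adjusted p = 0.207), with -0.59 without AS replicate 1, which passed (adjusted p = 0.0267), -0.16 without AS replicate 2 (adjusted p = 0.496) and -0.12 with array weights (adjusted p = 0.696). Igf2r at 1424112_at had -0.37 ± 0.17 (adjusted p = 0.245), and -0.14 without AA replicate 2.

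In SS against SA lungs the joint H19 and Mir675 probe set had -0.55 ± 0.23, or 0.683-fold (limma, unadjusted p = 0.0303, adjusted p = 0.284), and -0.38 without SA replicate 4. This value rests on the same SA lungs as the 0.75 in SA minus AA and is not a separate observation of them. The interaction at Peg3 1417355_at was 0.49 ± 0.21 (adjusted p = 0.505), with 0.72 without AS replicate 1, 0.29 without AS replicate 2 and 0.25 with array weights. No other member probe set had an interaction with an unadjusted p under 0.05.

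Probe sets of the same gene often disagreed within groups. For deviations from the group means over the 14 samples, the median correlation between the 11 Meg3 probe sets was 0.29 over 55 pairs. That between the 5 Peg3 probe sets was 0.25 over 10 pairs. For Igf2r the 2 probe sets had -0.63, with AA replicate 2 highest at 1 of them and lowest at the other. These values share their arrays and describe agreement of the readouts.

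Between genes, 45 correlations were computed over the 14 samples, and 0 passed an adjusted permutation p of 0.05 (5 Pearson and 3 Spearman values had an unadjusted p under 0.05). The strongest was negative, between Plagl1 and Cdkn1c, with Pearson's r = -0.71 (permutation p = 0.0043, adjusted p = 0.194) and Spearman's rho = -0.67 (permutation p = 0.0103, adjusted p = 0.461). It was -0.76 for deviations from the group means and -0.68 without AA replicate 2 and SA replicate 4. Meg3 and Grb10 had r = 0.62 (permutation p = 0.0188, adjusted p = 0.366; rho = 0.59, permutation p = 0.0302, adjusted p = 0.625), and 0.44 without the same 2 lungs. Igf2r and Dlk1 had r = 0.68 (permutation p = 0.0277, adjusted p = 0.366; rho = 0.35, permutation p = 0.215, adjusted p = 0.698), which was 0.02 without AA replicate 2 and the averaged SS pair and so rested on those samples. Of the 45 correlations 27 were positive and 18 negative.

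**Figure D4:**
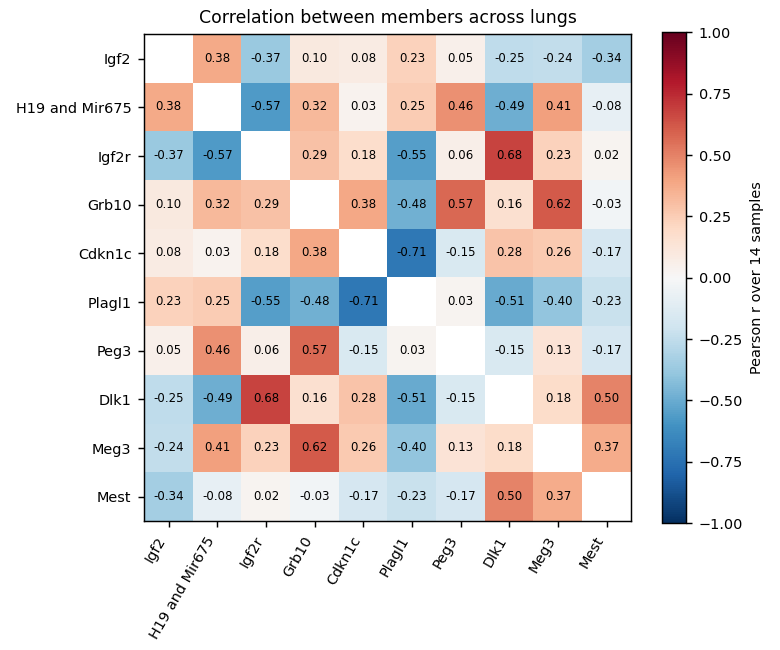
Pearson correlation over 14 samples between members, at the brightest probe set of each gene or, for H19, the one shared with Mir675; red is positive and blue negative. The strongest is -0.71 between Plagl1 and Cdkn1c, and none of the 45 passed the adjusted threshold.

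Among 18184 genes outside the members, those whose brightest probe sets ran most closely with that of Peg3 over the 14 samples were Gm3740 (r = 0.89), 2610507I01Rik (r = 0.87) and Kcnq1ot1 (r = 0.86). Kcnq1ot1 is an imprinted antisense RNA expressed from the paternal copy that silences Cdkn1c on that copy. Those running most oppositely were 4933431J24Rik (r = -0.92), Cyp4a14 (r = -0.86) and 3930402G23Rik (r = -0.86). For Kcnq1ot1 the value within groups was 0.83. These are the extremes of many genes over few samples and are given as a description.

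Other imprinted genes, 47 measured of a list of 56, had 108 probe sets. Again 0 of these passed the threshold in SA minus AA, SS minus AS, their mean and the interaction. Over all probe sets the shares were 0%, 0.968%, 0.284% and 0.131%. The median difference of the listed genes was -0.02 in SA against AA lungs and -0.01 in SS against AS lungs. The largest differences at brightest probe sets in SA against AA lungs were in Calcr, the calcitonin receptor, with 0.57 ± 0.20 (limma, adjusted p = 0.742), and Mkrn3, a ubiquitin ligase known for its part in the timing of puberty, with 0.26 ± 0.13 (adjusted p = 0.800). In SS against AS lungs they were in Slc38a4, an amino acid transporter of placenta and liver, with 0.60 ± 0.25 (adjusted p = 0.308), and Nnat, with -0.29 ± 0.15 (adjusted p = 0.425). Slc38a4 was the only gene of the list that changed in any of the 6 comparisons: it rose in SS against SA lungs by 0.71 ± 0.13 at 1448889_at (adjusted p = 0.0131), and its brightest probe set had 0.97 ± 0.23 (adjusted p = 0.0524). Only 1448889_at of the 108 probe sets passed there, against 1.64% of all probe sets.

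Of the IGF axis, 19 of 20 listed partners were measured, with 50 probe sets, and 0 passed in any of the 6 comparisons. Over all probe sets 0% to 1.64% passed in these comparisons. Irs2, the substrate that relays insulin and IGF receptor signals, had -0.33 ± 0.13 in SA against AA lungs (limma, adjusted p = 0.768) and -0.31 ± 0.16 in SS against AS lungs (adjusted p = 0.395). Their mean was -0.32 ± 0.10 (unadjusted p = 0.00716, adjusted p = 0.226). Next in size were Igf1, the postnatal growth ligand, with -0.21 ± 0.16 in SA against AA lungs (adjusted p = 0.911), and Igfbp4, an IGF binding protein, with -0.29 ± 0.13 in SS against AS lungs (adjusted p = 0.357).

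Factors that keep imprints in place, 11 measured of 12 listed, had 0 of 27 probe sets past the threshold in SA minus AA, SS minus AS, their mean and the interaction. Over all probe sets the shares were 0%, 0.968%, 0.284% and 0.131%, and 27 probe sets are too few to show a deficit. In SA against AA lungs the largest differences at brightest probe sets were in Uhrf1, which brings DNA methyltransferase to newly copied DNA, with 0.40 ± 0.18 (limma, unadjusted p = 0.0419, adjusted p = 0.786), and Arid4a, with 0.21 ± 0.12 (adjusted p = 0.860). In SS against AS lungs they were in Ehmt2, a histone methyltransferase, with -0.31 ± 0.17 (adjusted p = 0.431), and Zfp57, which protects methylated imprints after fertilisation, with -0.26 ± 0.16 (adjusted p = 0.493). Dnmt1, the maintenance DNA methyltransferase, followed with -0.22 ± 0.09 and no overlap (unadjusted p = 0.0285, adjusted p = 0.303). The SA lungs behind the Uhrf1 difference include SA replicate 4, the highest lung in the proliferation genes. The part of that lung in the Uhrf1 difference was not tested. With adult smoke 2 of the 11 genes fell, each at a dimmer probe set, which made 2 of the 27 probe sets of the list in each comparison, against 1.55% of all probe sets in AS minus AA and 1.64% in SS minus SA, counted in either direction. Arid4a at 1456420_at fell by 0.51 ± 0.08 in AS against AA lungs (adjusted p = 0.0109) and by 0.38 ± 0.08 in SS against SA lungs (adjusted p = 0.0350). Its brightest probe set, 1436191_at, had -0.43 ± 0.13 in SS against SA lungs (adjusted p = 0.140). In AS against AA lungs its difference there was smaller in size than the 0.17 of Zfp57. Arid4b at 1431024_a_at fell by 0.47 ± 0.08 (adjusted p = 0.0115) and by 0.33 ± 0.08 (adjusted p = 0.0456) in the same comparisons. At brightest probe sets 0 genes of the list passed in either. Arid4a and Arid4b encode chromatin proteins known, in mouse, to act at the Prader-Willi and Angelman imprinted region.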

How the data were processed

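Per the labels, total RNA of 16 left lungs was measured on 1 array each, but 2 pairs of arrays were near-identical and each pair was counted as 1 sample. The authors deposited summarised log2 values, a scale inferred from their range. How background and normalization were handled is not given in the sources used here. The submitters' processing notes name limma, without a version. No raw intensities were used, so dim probe sets were kept and no detection call was made. Array number limits the precision.

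Of 45101 probe sets 64 controls were left out. Platform gene symbols were updated through Entrez identifiers to a RefSeq gene table (GRCm38.p6), and 34945 probe sets had 1 symbol, 932 several and 9160 none. Group means of 14 samples were fitted with limma 3.58.1 in R 4.3.3, with 10 residual degrees of freedom shared by all groups, two-sided tests and Benjamini-Hochberg adjustment over 45037 probe sets. The fit was tested on simulated data. Errors after ± are standard errors. Correlations used two-sided permutation tests with 100000 resamples. Alternatives covered the pairs, a replicate block, quantile normalization, a mean above 6, array weights, brightest probe sets, eBayes settings, 2-group fits and leaving out each sample.

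All members were named. From each of 3 further lists (other imprinted genes, IGF axis, imprint maintenance), the rule took genes past the threshold and otherwise the 2 largest differences at brightest probe sets in a comparison, of which a part is given. The members and lists were chosen with earlier results of these data known.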

Additional observations from a re-analysis of the deposited data

Results flagged for a closer look

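In groups of 4, SA and AA, a lung was marked where its gap to the nearest other lung took up more than 0.829 of the group's range. This held in 9 of 64 groups of values looked at, and chance marks about 1 in 20. AA replicate 2 accounted for 6 of the 9. It was lowest of the AA lungs at the joint H19 and Mir675 probe set (5.30, nearest 6.14), at Grb10 1430164_a_at (7.57, nearest 7.66) and at Plagl1 1426208_x_at (12.13, nearest 12.29). It was highest at Igf2r 1424112_at (10.66, nearest 9.77), at Dlk1 1442724_at (4.44, nearest 4.40) and at Meg3 1428765_at (4.17, nearest 3.92). Among SA lungs, replicate 1 was lowest at Dlk1 1449939_s_at (5.35, nearest 5.50), replicate 4 was highest at Meg3 1428764_at (6.03, nearest 5.82) and replicate 3 was highest at Peg3 1417356_at (7.33, nearest 7.07).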

How the results depend on the processing

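The count of 0 member probe sets past the threshold held in SA minus AA, the in-utero mean, SS minus SA and the interaction under every alternative run. It was 1 in SS minus AS (Peg3 1417355_at) and 1 in AS minus AA (Meg3 1452906_at) with all 16 arrays as separate samples, and 1 in each with a replicate block on those arrays. Leaving out samples gave 0 to 1 in both comparisons, the 1 being Peg3 1417355_at without AS replicate 1. The cause was not tested. With 16 arrays the Peg3 difference was 0.47 (limma, adjusted p = 0.0492, and 0.0442 with the block) and the Meg3 difference 0.32 (adjusted p = 0.0326, and 0.0380 with the block). Both settings count each near-identical pair as 2 samples. Of 3968 values of a probe set in a comparison under an alternative, 6 newly passed, and 171 differed in sign from a main value that had not passed. The block changed no other call. Of same-numbered replicates, 24 correlations of deviations ran from -0.16 to 0.25, with 8 above 0.1. Without different-numbered replicates beside them, these values cannot decide whether the numbers pair the samples. The correlations between members stayed at 0 past the adjusted threshold under both alternatives.

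Counts over all probe sets moved more. With 16 arrays, without and with the block, they were 2214 and 2364 in SS minus AS (436 in the main setting), 511 and 463 in the in-utero mean (128), 3565 and 3761 in AS minus AA (699), 1345 and 1268 in SS minus SA (737), and 330 and 529 in the interaction (59). Array weights gave 1181 in SS minus AS, 459 in the in-utero mean, 2154 in SS minus SA and 205 in the interaction. Only brightest probe sets, of which fewer were tested, gave 134, 57, 179, 470 and 27 in the same order of comparisons. Fits of only the 2 groups gave 131 in SS minus AS and 47 in AS minus AA. A mean above 6 gave 201 in the in-utero mean, and quantile normalization and the eBayes settings gave 89 each in the interaction. Leaving out samples gave 136 to 507, 32 to 279, 185 to 905, 171 to 1014 and 23 to 115. In SA minus AA all of these gave 0. Without raw intensities, signal over background is not known for the dim Dlk1, Igf2, Meg3 and Peg3 probe sets.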

Other observations

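Outside the genes named by rule, the probe sets that ran most closely with the joint H19 and Mir675 probe set over the 14 samples were looked up after its values had been seen. They belonged to Trmt9b (r = 0.90 over 14 samples, 0.88 within groups) and Cmtm6 (r = 0.88, 0.85 within groups), and the most opposite to Kdm4a (r = -0.88, -0.78 within groups) and Apoc1 (r = -0.81, -0.66 within groups). These are extremes among 18184 genes and are given as values.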
